A study of Drosophila melanogaster with 2 samples.

Results

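The nuclear genes for subunits of the oxidative phosphorylation machinery were followed across the cell classes of the adult fly midgut. They were taken as every row of the deposited expression table whose name begins with ND-, UQCR-, COX or ATPsyn, which gave 60 of 9607 genes. By name, 33 belong to complex I, 6 to complex III, 8 to complex IV and 13 to complex V. The annotation lists 80 genes with these prefixes, of which 20 are not analysed here.

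The study collected dissociated epithelial cells of the midgut from females of the wild type Drosophila melanogaster strain Canton S and sequenced them with the Chromium v3.1 droplet chemistry, which tags each captured transcript with a unique molecular identifier (UMI). There were 2 libraries, 1 from 3-day old and 1 from 1-day old adults, and no group carried a transgene or a treatment per the labels. The day 3 library held 1473 cells with a median of 32121 UMIs each, and the day 1 library 2711 cells with a median of 25935 UMIs. With 1 library per age there is no replicate, age and library cannot be told apart, and no test was made. Differences are therefore described as higher or lower, with no p-value.

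Oxidative phosphorylation turns the electrons of nutrients into ATP at the inner mitochondrial membrane. Complex I takes electrons from NADH, complex III passes them from ubiquinol to cytochrome c, complex IV hands them to oxygen, and all of these pump protons. Complex V, the ATP synthase, lets the protons flow back through a rotating ring of c subunits and makes ATP. Complexes I, III, IV and V are mosaics: a few subunits are made from mitochondrial DNA inside the organelle, and the many others, described here, are made from nuclear genes and imported. In the fly midgut, intestinal stem cells give rise to enteroblasts, which mature into absorptive enterocytes, and to hormone-secreting enteroendocrine cells.

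The deposited annotation divides the cells into 10 classes. ISC1 and ISC2 are named for intestinal stem cells and EB1, EB2 and EB3 for enteroblasts. AstC+EE and Tk+EE are enteroendocrine cells, apEC and mEC are enterocytes, by their names anterior or posterior and middle, and EC-like is named after enterocytes. Marker genes went with the enteroendocrine and enterocyte names. The summed level of 6 enteroendocrine markers, in depth-corrected counts per 10000 of a cell's total, was 265 at day 3 and 175 at day 1 in AstC+EE cells, and 1477 and 1554 in Tk+EE cells, against at most 1.83 in any other class. The summed level of 7 enterocyte markers was 946 at day 3 and 801.2 at day 1 in apEC cells, but only 15.96 and 12.65 in mEC cells. It was at most 5.70 in the remaining classes. The sum of 5 middle midgut markers reached 72.6 and 75.2 in mEC cells, against at most 29.8 in any other class. EB2 stood apart from the other progenitor classes. Its 5 progenitor markers summed to 5.46 at day 3 and 5.62 at day 1, against 14.96 and 13.6 in EB1 cells. Of the 7 enterocyte markers, the factor nub had 1.17 and 1.16 in EB2 cells, above the 0.789 and 0.515 of apEC cells. It was at most 0.0416 in ISC1, ISC2, EB1 and EB3. The 7 markers together summed to only 5.29 at day 3 and 5.12 at day 1 in EB2 cells. The EC-like class went against its name. Its enterocyte markers summed to 3.73 at day 3 and 5.70 at day 1, while its progenitor markers summed to 18.5 and 17.2, close to the 18.5 and 18.1 of ISC2. At day 1, 81 EC-like cells lay in a deposited cluster that held none at day 3. The 6 markers of visceral muscle, a mitochondria-rich tissue next to the epithelium, summed to at most 0.772 in any class. The libraries shared 1 cell barcode.

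On the deposited scale, all subunits together were most abundant in middle enterocytes and least abundant in EB1 cells, in both libraries. In mEC cells the summed level of the 60 genes was 428 per 10000 at day 3 and 463 at day 1. In EB1 cells it was 155 at day 3 and 179 at day 1. The highest class thus stood 2.76-fold above the lowest at day 3 and 2.59-fold above it at day 1. Since the classes were drawn by the authors from all genes, the subunits included, this order is a description and carries no test.

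The enteroblast classes lay at both ends of the range. EB2 cells reached 360 per 10000 at day 3 and 389 at day 1, next below mEC, whereas EB3 cells had 171 and 196, next above EB1. The apEC class had 320 at day 3 and 341 at day 1, and ISC1 cells had 275 and 294. AstC+EE cells had 255 at day 3 and 262 at day 1, above the 207 and 213 of Tk+EE cells. ISC2 cells, at 189 and 201, lay close to EC-like cells, at 190 and 217. The quartile ranges of single cells did not meet between EB2 (284 to 416 at day 3, 327 to 428 at day 1) and EB1 (120 to 177 and 142 to 201). Those of ISC2, EB3 and EC-like cells overlapped widely. The apEC class was the least uniform, with quartiles of 172 and 376 at day 3 and of 184 and 473 at day 1.

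**Figure D1:**
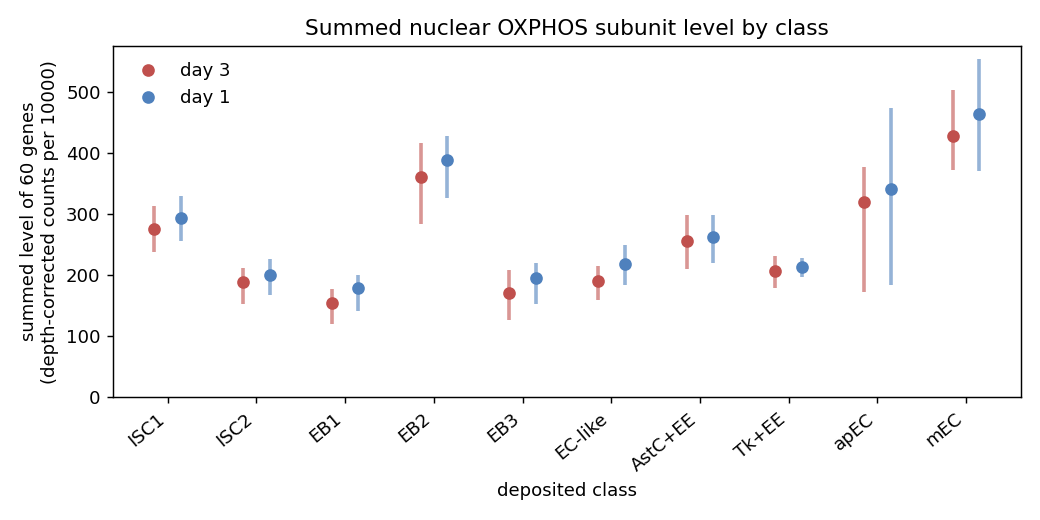
Summed level of the 60 nuclear subunit genes (vertical axis, depth-corrected counts per 10000 of a cell's total) in each of the 10 deposited classes, day 3 left of day 1. Points are means over cells and bars span the quartiles of single cells. mEC stands highest (428 at day 3 and 463 at day 1) and EB1 lowest (155 and 179), and the day 3 point lies below the day 1 point in each class.

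The order depends partly on what the counts are divided by. Transcripts of cytosolic ribosomal proteins took a median of 20.6% of the counts of an apEC cell at day 3 and 20.8% at day 1, but 58.7% and 59.99% of those of an ISC2 cell. With ribosomal and mitochondrially encoded transcripts left out of the total, EB2 became the highest class, at 701 per 10000 at day 3 and 769 at day 1. Tk+EE then became the lowest, at 307 and 325, while EB1 had 402 and 473. With median ratio scaling over 637 genes, mEC stayed highest, at 493 at day 3 and 603 at day 1, and EB3 was lowest, at 173 and 186. The position of EB2 far above EB1 held on each of these scales. EB2 cells also carried more UMIs, with medians of 67953.5 at day 3 and 50586.5 at day 1, against 45334 and 34191 in EB1 cells. Among cells of 10000 to 40000 UMIs, EB2 had 288 at day 3 (17 cells) and 353 at day 1 (58 cells), and EB1 had 151 and 177. UMI counts were also rebuilt by undoing the depth correction, which could be done only in cells up to the median depth. These held 70 of the 399 EB1 cells at day 3 and 322 of 970 at day 1. In this setting Tk+EE cells, with median depths of 9042 and 7758.5 UMIs, came to 165 per 10000 at day 3 and 166 at day 1, so that their place above EB1 (149 and 176) did not hold at day 1. The top of the order moved too: apEC cells had 420 at day 3 (95% interval 411 to 429, 16 cells) and 367 at day 1 (21 cells), while mEC cells had 410 (399 to 421, 11 cells) and 446 (8 cells). What moved these classes was not tested.

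Single subunits followed the sum with few exceptions. Of the 54 genes with a mean at or above 0.5 per 10000 in every class of 1 library, 36 had their highest level in mEC at day 3 and 35 at day 1. EB2 was highest for 14 at day 3 and 18 at day 1. EB1 was lowest for 44 genes at day 3 and 40 at day 1, and Tk+EE for 5 and 8. The exceptions at day 3 were ND-49 and ND-B16.6, highest in Tk+EE, ND-MWFE, highest in AstC+EE, and ND-B15, highest in apEC. Fold ranges of single genes across classes are given below from means of both libraries. The highest class mean is divided by the lowest, after 0.1 per 10000 is added to each. This understates the range of low genes.

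**Figure D2:**
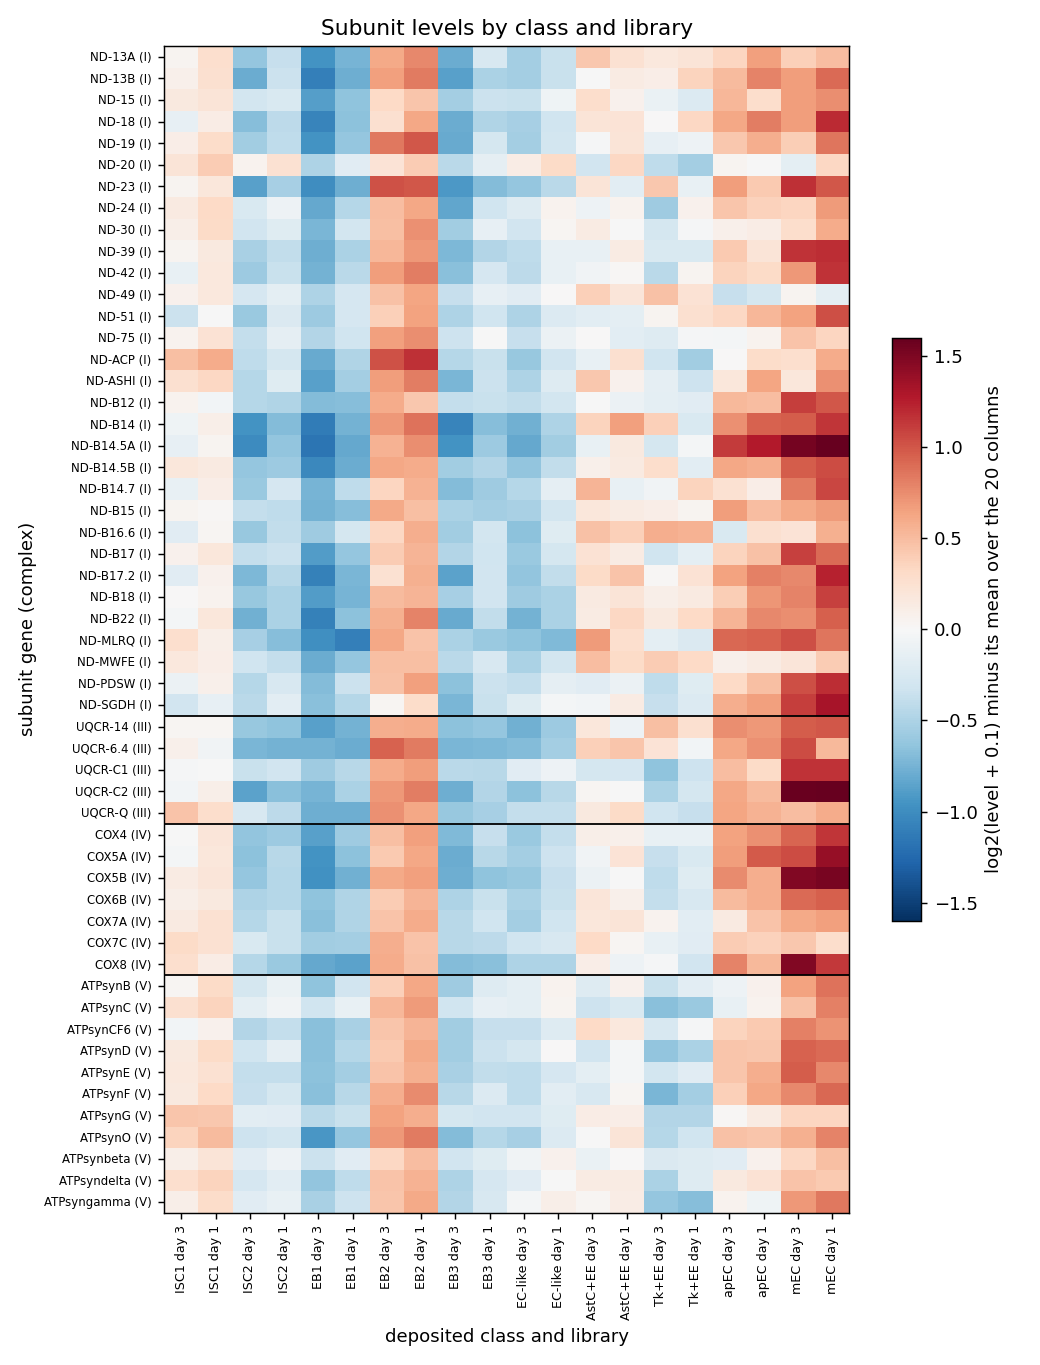
Level of 54 subunit genes (rows, grouped by complex from I at the top to V at the bottom) in 10 classes (columns, day 3 left of day 1), as log2(level + 0.1) minus the gene's mean over the 20 columns. Red is above and blue below that mean; the mEC and EB2 columns are red and the EB1 columns blue for most genes.

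Complex I, the NADH dehydrogenase, was represented by its cofactor-carrying core and by many accessory subunits. ND-B14.5A, an accessory subunit encoded on the X chromosome (BDGP6, 2172526 to 2173432, plus strand), had the widest range of all genes considered. Its level was 5.49 per 10000 at day 3 and 6.09 at day 1 in mEC cells and 4.10 and 4.58 in apEC cells. It was 0.764 at day 3 and 0.996 at day 1 in EB1 cells, a 6.01-fold range after the added 0.1. Both enterocyte classes lay above every other class for this gene, EB2 (2.76 and 3.15) included. ND-MLRQ, whose mammalian counterpart is found with complex IV, had 9.78 at day 3 and 8.68 at day 1 in mEC cells, and 2.35 and 2.18 in EB1 cells. ND-PDSW had 7.98 and 8.88 in mEC cells against 2.35 and 3.00 in EB1 cells, and ND-SGDH had 6.85 and 8.005 against 1.93 and 2.27. ND-ACP, the mitochondrial acyl carrier protein, was instead highest in EB2, at 6.44 and 7.10, with 3.78 and 4.76 in mEC cells.

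Most core subunits of complex I varied little across the classes. ND-20, which carries an iron-sulfur cluster near the ubiquinone site, had a range of only 1.72-fold, the smallest among complex I genes. Its level was 3.05 at day 3 and 3.47 at day 1 in EB2 cells, and 1.94 and 1.76 in Tk+EE cells. ND-49, its neighbour at that site, ranged 1.91-fold, from EB2 (1.84 at day 3 and 2.07 at day 1) down to EB1 (0.891 and 1.06). It was also low in apEC cells, at 0.985 and 1.06, while mEC cells had 1.35 and 1.15. ND-B16.6, an accessory subunit, ranged 2.09-fold and reached 4.60 at day 3 and 4.53 at day 1 in Tk+EE cells. Of the other core subunits, ND-75 ranged 2.13-fold, ND-30 2.15-fold, ND-24 2.27-fold and ND-51, which binds the flavin and accepts electrons from NADH, 2.40-fold. ND-23, an iron-sulfur subunit, was the exception with 3.91-fold (after the added 0.1), from mEC (2.40 and 2.10) down to EB1 (0.457 and 0.544).

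As a share of all complex I counts, these 7 core subunits made up 19.5% at day 3 and 20.3% at day 1 in EB1 cells, and 20.3% and 20.6% in EC-like cells. In mEC cells they made up 13.0% at day 3 and 13.4% at day 1, and in apEC cells 14.1% and 13.2%. Within a single cell such a share does not depend on the total used for scaling, though the total weights the cells in a class mean. Rebuilt UMI counts gave 20.7% at day 3 (95% Clopper-Pearson interval 19.6 to 21.8) and 20.3% at day 1 (19.8 to 20.8) in EB1 cells. In mEC cells they gave 13.1% (11.4 to 14.9) and 12.5% (10.7 to 14.6). These intervals cover counting error only.

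Among complex III genes the widest range was that of UQCR-C2, a core protein that faces the matrix. UQCR-C2 (chromosome 3L, 16584124 to 16586111, plus strand) had 10.1 per 10000 at day 3 and 10.6 at day 1 in mEC cells, against 1.78 and 2.05 in ISC2 cells. That is a 5.17-fold range. Its partner UQCR-C1 ranged 3.16-fold, with 6.67 and 6.66 in mEC cells against 1.95 and 2.13 in EB1 cells. Both core proteins stood well above apEC levels in mEC cells: apEC cells had 5.16 and 4.74 for UQCR-C2, and 4.18 and 3.66 for UQCR-C1. The small subunit UQCR-Q was highest in EB2, at 9.47 and 8.70, against 3.25 and 3.23 in EB1 cells. UQCR-14 had 8.52 and 8.65 in mEC cells against 2.31 and 2.499 in EB1 cells. UQCR-11, a low gene, was instead highest in AstC+EE, at 1.73 and 1.57, with 0.816 and 1.29 in mEC cells.

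Complex IV, cytochrome c oxidase, held 3 of the 5 genes with the widest range on this measure. The range of ND-23 (3.91-fold), a lower gene, is narrowed more by the added 0.1. The place of COX5A among the 5 therefore depends on that addition. COX5B had 14.5 per 10000 at day 3 and 14.99 at day 1 in mEC cells, and 2.58 and 2.99 in EB1 cells, a 5.14-fold range. COX8 (chromosome 3L, 21538859 to 21539447, minus strand) had 19.6 and 15.3 in mEC cells and 3.90 and 3.804 in EB1 cells, a 4.45-fold range. COX5A had 15.3 and 19.6 in mEC cells and 3.76 and 4.63 in EB1 cells, a 4.09-fold range. In each of these the mEC level exceeded that of every other class. COX4, a regulatory subunit, ranged 3.39-fold, COX6B 2.81-fold, COX7A 2.30-fold and COX7C 2.11-fold, the last with its highest level in EB2.

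Complex V held several of the genes that varied least. ATPsynbeta, which holds the catalytic sites, ranged only 1.595-fold, the smallest range of the 54 genes. It had 12.2 per 10000 at day 3 and 13.6 at day 1 in EB2 cells, 12.2 and 13.6 in mEC cells, and 7.60 and 8.51 in EB1 cells. ATPsyndelta ranged 2.03-fold and ATPsynG 2.12-fold. ATPsynC, the c subunit of the proton-driven ring (chromosome 3R, 31216145 to 31219630, minus strand), had 41.0 at day 3 and 52.1 at day 1 in mEC cells. It had 43.0 and 47.6 in EB2 cells, and its lowest values, 18.7 and 19.7, in Tk+EE cells. ATPsyngamma, the rotating central stalk, was also lowest in Tk+EE, at 4.39 and 4.21, against 11.1 and 12.3 in mEC cells. ATPsynF followed it, with 7.80 and 8.83 in Tk+EE cells against 22.1 and 24.6 in mEC cells.

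The classes therefore differed in the mix of complexes as well as in amount. Complex V genes made up 49.6% of the summed level at day 3 and 49.5% at day 1 in EB1 cells, 48.9% at both ages in ISC2 cells and 49.1% at both ages in EC-like cells. They made up 37.5% and 39.3% in Tk+EE, 39.7% and 41.9% in AstC+EE, 37.9% and 38.9% in apEC and 39.7% and 40.3% in mEC cells. EB2 lay between, at 43.7% and 44.4%, and so did ISC1, at 46.2% and 47.0%. Rebuilt UMI counts gave 49.6% at day 3 (49.0 to 50.3) and 49.2% at day 1 (49.0 to 49.5) in EB1 cells, and 37.03% (35.7 to 38.4) and 37.9% (36.2 to 39.6) in Tk+EE cells. The abundant ATPsynC did not carry this alone. Without it, complex V came to 40.5% at day 3 and 40.3% at day 1 in EB1 cells and to 31.3% and 33.1% in Tk+EE cells.

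Complexes I and IV both held larger shares in enteroendocrine cells and enterocytes than in EB1 cells. Complex I was largest in Tk+EE cells, at 30.4% at day 3 and 30.2% at day 1, against 27.6% and 27.9% in apEC cells and 22.6% and 23.9% in EB1 cells. Complex IV was largest in enterocytes, with 25.6% and 24.4% in mEC and 25.2% and 24.7% in apEC cells, against 20.7% and 20.2% in EB1 cells. Complex III shares ran from 6.47% in ISC2 cells at day 1 to 9.29% in apEC cells at day 3.

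**Figure D3:**
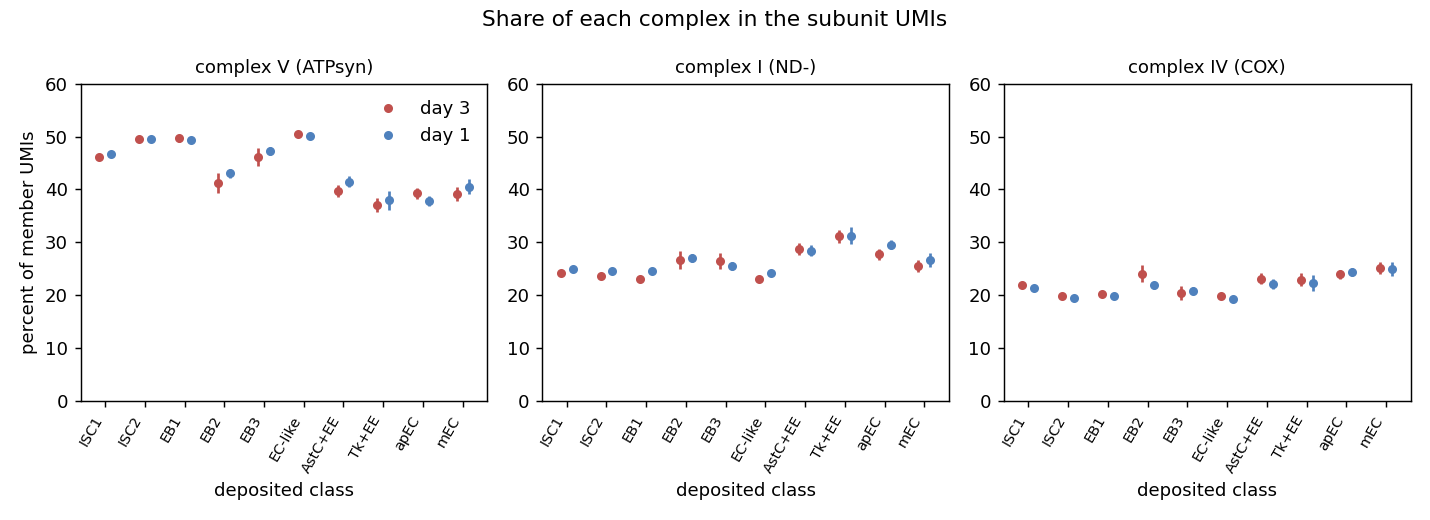
Share of complexes V, I and IV in the rebuilt subunit UMIs (vertical axis, percent) by class, day 3 left of day 1, in cells up to the median depth. Points are shares and bars 95% Clopper-Pearson intervals (counting error only); complex V is 49.6% at day 3 and 49.2% at day 1 in EB1 cells, against 37.03% and 37.9% in Tk+EE cells, where complex I is largest.

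A few named members were barely detected. COX4L and ATPsynbetaL, paralogs of COX4 and ATPsynbeta, stayed below 0.1 per 10000 in every class of both libraries. In cells up to the median depth, COX4L had 0 UMIs in 616 cells at day 3 and 2 in 1476 cells at day 1, and ATPsynbetaL had 11 and 32. ATPsynepsilonL reached its highest level in apEC cells, at 0.0630 at day 3 and 0.195 at day 1, and rebuilt counts of all enterocytes held 5 UMIs in 27 cells at day 3 and 13 in 29 at day 1. After thinning each cell to 4000 UMIs, ATPsynbeta was found in 95.3% of 612 cells at day 3 and 96.4% of 1470 cells at day 1, but ATPsynbetaL in 0.163% and 0.476%. The complex I gene ND-MNLL was found in 1.31% (0.566 to 2.56) and 1.84% (1.21 to 2.66). Exons of ND-MNLL (chromosome X, 7893053 to 7893798, minus strand) share 720 bases with CG45089 on the same strand, so reads could be split between the pair or left uncounted. Its level is therefore uncertain. ND-AGGG, ND-MNLL, UQCR-11 and the 3 paralogs are the 6 members outside the 54 described above.

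The mitochondrially encoded partners ran the other way across classes. The 11 measured mitochondrial genes of complexes I, IV and V summed to 331 per 10000 at day 3 and 291 at day 1 in EB1 cells, which is 213% and 163% of the nuclear sum there. The figure was 218% and 167% in EC-like cells, 190% and 183% in Tk+EE cells and 190% and 151% in EB3 cells. In EB2 cells it was only 61.4% and 54.2%, and in apEC cells 29.2% and 30.6%. The mEC class had 29.7% at day 3 and 13.4% at day 1, but rebuilt UMI counts gave 32.4% (11 cells) and 22.9% (8 cells), so its day 1 value depends on the counts used. Across the 10 classes the nuclear and mitochondrial sums had a Spearman rho of -0.75 at day 3 and -0.76 at day 1. The points share a library and a cell total, so more of one leaves less for the other. With ribosomal proteins in place of the mitochondrial genes the rho was -0.66 and -0.71. The part of the shared total in this relation was not tested. Within a single cell the ratio does not depend on that total, but the total weights the cells in a class mean.

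**Figure D4:**
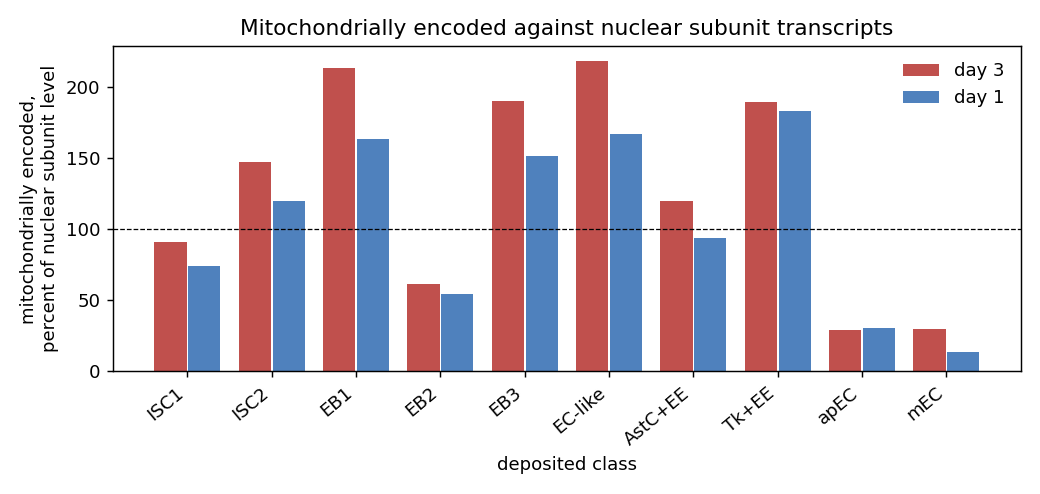
Summed level of 11 mitochondrially encoded genes as a percent of the summed level of the 60 nuclear subunit genes (vertical axis), by class, day 3 left of day 1; the dashed line marks 100%. EB1 reaches 213% at day 3 and 163% at day 1, against 29.2% and 30.6% in apEC.

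Between the ages, subunit levels were somewhat lower at day 3 than at day 1 in most classes. For this comparison AstC+EE was joined with Tk+EE, and apEC with mEC, to reach 50 cells in each library, which gave 8 classes. Differences are given as the log2 ratio of the day 3 mean to the day 1 mean, each raised by a pseudocount of 0.1 per 10000, for genes whose mean reached 0.5 in 1 library of the class; the pseudocount understates the change of low genes. The median over members was -0.23 in EB1, -0.22 in EB3 and in EC-like, -0.14 in EB2, -0.12 in ISC1, -0.11 in ISC2 and in enterocytes, and -0.07 in enteroendocrine cells. The median over all genes of the same class lay between -0.07 and 0.03. These are small differences, and the fold of 1.2 used below corresponds to 0.26 on the log2 scale.

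The counts past that fold differed by class. In EB1, 23 of 54 members (42.6%) were lower at day 3 by the fold or more, where 12.9% of all genes were. In EB3 it was 20 of 55 (36.4%), against 22.0% of all genes, and in EC-like cells 16 of 55 (29.1%), against 18.1%. Without the 81 cells of the day 1 cluster, EC-like had 8 of 55 (14.5%), against 14.4% of all genes. In ISC2, 8 of 55 members (14.5%) were lower past the fold, against 9.11% of all genes, and in ISC1 3 of 56 (5.36%), against 5.33%. In EB2 the count was 2 of 56, against 14.2%. In these 6 classes no member was higher past the fold. Of all genes, 16.4% were in EB1, 11.8% in EB3, 9.96% in EC-like, 14.2% in ISC2, 10.7% in ISC1 and 23.2% in EB2. Enteroendocrine cells had 4 of 56 lower, against 15.2% of all genes, and 3 higher, against 25.6%. Their count depended on the setting: with rebuilt UMI counts 18 of 56 were lower and 6 higher. Without ribosomal and mitochondrially encoded transcripts in the total, 20 were lower and 1 higher. No share of all genes was worked out for these settings. Enterocytes had 13 of 56 lower, against 27.3%, and 1 higher, against 25.4%. With the deposited totals, shares in ISC1, EB2, enteroendocrine cells, enterocytes and EC-like cells without that cluster were near or under those of all genes. They give no result about the subunits.

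The enterocyte value did not hold its direction. With rebuilt UMI counts, in 27 cells at day 3 and 29 at day 1, the median over members was 0.05, with 30 members higher and 26 lower. Among cells of 10000 to 40000 UMIs it was 0.16. For the EB1 class the corresponding medians were -0.25 and -0.26, beside -0.23. The EB1 count past the fold depended on the settings. With a pseudocount of 1 it was 2 of 54 members, with a median of -0.16. With a minimum mean of 5 per 10000 it was 2 of 11, with a median of -0.19. At a fold of 1.5 it was 0 of 54. The EB1 cells were deeper at day 3, with a median of 45334 UMIs, against 34191 at day 1. Among cells of 10000 to 40000 UMIs, 25 of 54 members were lower past the fold in EB1. No share of all genes was worked out for those cells, so this count gives no result about the subunits.

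By complex, complex I was lowest relative to day 1 and complex III nearest to it. The median over classes of the median log2 difference was -0.18 for complex I, -0.14 for complex V, -0.11 for complex IV and -0.01 for complex III. In EB1 cells, where 12.9% of all genes were lower past the fold, 19 of 31 complex I genes (61.3%) were. There it was 2 of 7 of complex IV (28.6%), 2 of 11 of complex V (18.2%) and 0 of 5 of complex III. In EB3 cells, where 22.0% of all genes were, it was 16 of 31 (51.6%), 2 of 7 (28.6%), 1 of 11 (9.09%) and 1 of 6 (16.7%). Outside complex I these counts are small, several lie near or under the share of all genes, and they give no result about those complexes.

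The lowest members relative to day 1 all belonged to complex I. ND-B17.2, an accessory subunit, had 0.857 per 10000 at day 3 and 1.12 at day 1 in EB1 cells, 2.30 and 2.92 in EB2 cells and 1.02 and 1.54 in EB3 cells. Its log2 difference was -0.35, -0.33 and -0.55 in these classes, and its median over the 8 classes was -0.29. ND-18 had 0.999 and 1.35 in EB1 cells, with a median difference of -0.29. The core subunit ND-51 had 1.10 and 1.40 in EB1 cells and 1.32 and 1.69 in ISC1 cells, and its median was -0.28, as was that of ND-42. ND-ASHI had a median of -0.27, lower in 7 of 8 classes. The other 4 were lower in 8 of 8.

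ND-MLRQ, also named for complex I, and COX8 stood at the other end with a median of 0.13 each. ND-MLRQ was higher at day 3 in 8 of 8 classes, with ISC1 cells at 5.74 against 5.07 at day 1 and EB1 cells at 2.35 against 2.18, but in none past the fold. COX8 was higher in 6 of 8 classes, and past the fold in enterocytes, with 14.9 at day 3 and 12.1 at day 1. COX7C followed with 0.07, and ND-B12, ND-B15 and UQCR-6.4 with 0.03 each. None of these 6 median differences reached the fold.

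These members have short transcripts. ND-MLRQ has a median annotated transcript of 439 bases, COX8 of 459.5, ND-B12 of 422, ND-B15 of 477, UQCR-6.4 of 442.5 and COX7C of 524, while the members as a whole range from 422 to 2557. Over classes, the 17 tested members of at most 600 bases had a median difference of -0.01, and 7 were higher at day 3. The 39 longer ones had -0.19, and 1 was higher. Across the 56 tested members, which are not independent, the Spearman rho of the difference with length was -0.47. Other genes up to 500 bases had a median of 0.04 (95 genes), and those over 500 and up to 600 bases -0.13 (90). Those over 600 and up to 800 bases had -0.13 (265) and those over 800 and up to 1000 bases -0.16 (284). The 6 members up to 500 bases had 0.03, and the 11 over 500 and up to 600 bases -0.12. Members over 600 and up to 800 bases, and those over 800 and up to 1000 bases, had -0.20. Longer genes parted from the members. Over 1000 and up to 2000 bases, 8 members had -0.17 and 1034 other genes -0.07, and over 2000 bases 2 members had -0.14 and 1240 other genes 0.15. The part of transcript length in the difference between the libraries was not tested.

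**Figure D5:**
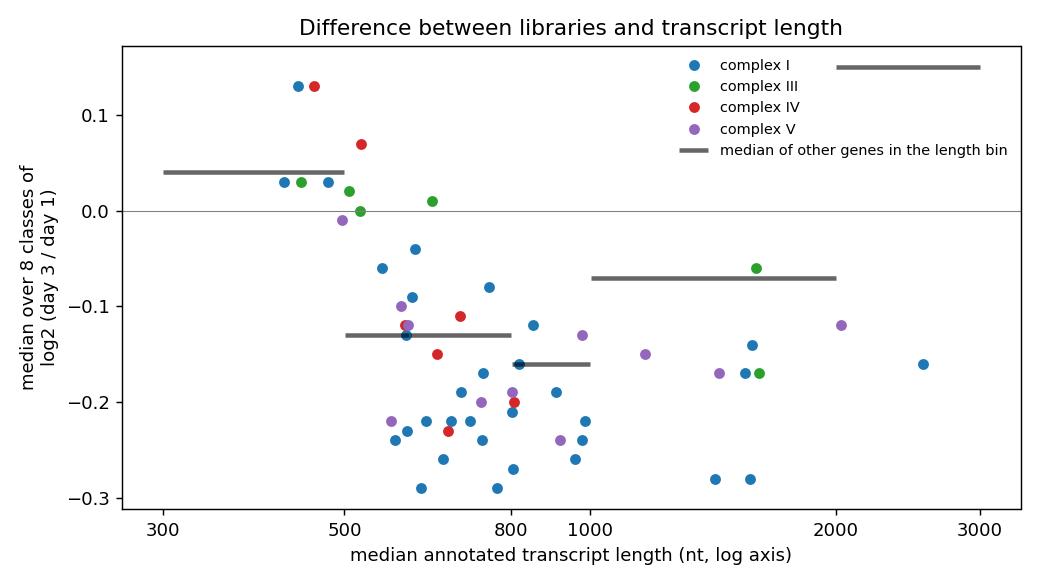
Median over 8 classes of log2 day 3 over day 1 (vertical axis) against the median annotated transcript length (horizontal log axis, bases) for 56 subunit genes, coloured by complex. Dark bars are medians of all other genes in the same length bin. The bar over 2000 bases has no upper end and stops at the right of the last tick. Members up to 500 bases lie near or above 0, and most longer ones below.

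Related genes from lists drawn up for the pathway gave a mixed picture. Of complex II, succinate dehydrogenase, which is wholly nuclear-encoded, 4 genes were tested. All 4 were lower at day 3 in every class but enteroendocrine cells, where SdhC was higher, and the class medians ran from -0.38 in enterocytes to -0.11 in ISC1. SdhB, the iron-sulfur subunit, had 1.25 per 10000 at day 3 and 1.51 at day 1 in EB1 cells. Across classes, the summed level of complex II was again highest in mEC, at 16.5 and 23.02, and lowest in EB1, at 4.99 and 5.995.

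Of 6 nuclear subunits whose names lie outside the prefixes, 2 with short transcripts were higher at day 3 in most classes. The cytochrome oxidase subunit cype, with a median transcript of 398 bases, was higher at day 3 in all 8 classes; EB1 cells had 4.08 per 10000 at day 3, against 3.24 at day 1, and ISC1 cells 7.03 against 5.56. The small ATP synthase subunit sun, of 425 bases, was higher in 7 of 8 classes. The complex IV subunit levy, of 541.5 bases, was lower in 6 of 8, with 5.64 and 6.37 in EB1 cells, and higher in enteroendocrine cells and enterocytes. The alpha subunit of the ATP synthase, blw, had 6.11 and 6.67 in EB1 cells, a log2 difference of -0.13.

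Cytochrome c and the mitochondrial genes were higher at day 3 in most classes. Cyt-c-p, the cytochrome c that links complexes III and IV, was higher at day 3 in 7 of 8 classes and lower in enterocytes. ISC1 cells had 4.34 at day 3, against 3.34 at day 1, and AstC+EE cells 8.24 against 5.02. Its class order was also its own: Tk+EE (9.20 and 6.25) and EB2 (10.2 and 8.77) were highest, and mEC had 2.47 and 2.43. The outer membrane channel porin did not share this: it was at or below its day 1 level in all 8 classes, with 4.91 and 5.27 in EB1 cells. In enterocytes all 4 tested carriers were lower at day 3. Of the 10 mitochondrially encoded genes tested in EB1, 10 were higher at day 3 and 7 past the fold, where 16.4% of all genes were higher past it. The mitochondrial complex I gene mt:ND2 had 4.83 at day 3 and 2.81 at day 1 in EB1 cells, while the nuclear complex I genes of that class had a median difference of -0.32. TFAM, which packages mitochondrial DNA, had 0.456 and 0.560 in EB1 cells and was lower at day 3 in all 7 classes where it was tested. Of the TCA cycle genes, Fum1 was lower at day 3 in all 8 classes, with 1.18 and 1.44 in EB1 cells, while Nc73EF was higher in 7. Of 8 glycolysis and lactate genes tested in EB1, 6 were lower and 2 higher, the higher pair being Hex-A, with 9.64 and 7.80, and Ldh, with 1.12 and 0.851.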

How the data were processed

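Single midgut cells were measured in 2 libraries, with groups taken from the labels. Cell Ranger 6.0.1 and build BDGP6 are named, per the submitters' processing notes; other settings are not given in the sources used here. The deposited expression table holds the natural log of 1 plus a depth-corrected whole number per gene and cell, and these sum to the deposited score for the corrected total in all 4184 cells. The deposited counts per cell gave UMIs, and the deposited percent columns the mitochondrial and ribosomal shares. Column names per the file headers are those of Seurat and SCTransform. The deposited doublet columns hold a singlet call for each of the 4184 cells, and no doublet caller was run besides. All per-sample columns were mapped, and 0 were left out.

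Each cell's values were scaled to 10000 and averaged over a class in each library (Python 3.11.15, numpy 2.4.6, pandas 2.3.3). UMI counts were rebuilt by inverting the depth correction in the shallower 2092 cells (28085.5 UMIs, the median, or fewer). The inversion matched the deposited values in 97.9% or more of those cells for each member. Its parameters were chosen for each gene by this match in 691 of the cells, so the match is partly a measure of the fit. Among the mitochondrially encoded genes the lowest match was 93.2%, for mt:CoIII. Shares carry exact 95% intervals from scipy 1.17.1, for counting error only. Positions and transcript lengths came from the Ensembl release 115 annotation, matched by symbol for 60 of 60 members and 95.1% of rows. The difference measure was tested on simulated data for the day 3 over day 1 comparison with 9607 genes, of which 200 were changed by set amounts. For the part of them set to a log2 difference of -0.3, the class medians were -0.35 to -0.26.

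Members were named as the 3 of highest mean per complex, the 5 with the widest and the 5 with the narrowest class range, and the 5 lowest and 5 highest differences between ages. Core and cofactor subunits, paralogs and members under 0.1 per 10000 were named besides. For ties, all were named. ND-B15, ND-MWFE, ND-ACP, ND-MNLL, ND-AGGG, UQCR-11 and levy were named after their values were seen. The members and lists were chosen with earlier results of these data known. Alternatives covered the counts used, the scaling total, cell depth, pseudocount, filter, fold, member set and EC-like cells, and 2 splits by transcript length were added after seeing the data.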

Additional observations from a re-analysis of the deposited data

Results flagged for a closer look

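In 2 members a difference past the fold of 1.2 had opposite signs in different classes; with 1 library per age, neither contrast between classes was tested. ND-23, an iron-sulfur subunit of complex I, had 1.28 per 10000 at day 3 and 0.895 at day 1 in enteroendocrine cells, a log2 difference of 0.47. In ISC2 cells it had 0.504 at day 3 and 0.665 at day 1, a difference of -0.34. ND-AGGG, an accessory subunit of complex I, had 0.566 and 0.454 in enteroendocrine cells, a difference of 0.27, but 0.387 and 0.655 in enterocytes, a difference of -0.63. Of the joined enteroendocrine classes, ND-AGGG was higher at day 3 only in AstC+EE (0.667 against 0.371) and lower in Tk+EE (0.459 against 0.579). Both genes are low, and these enteroendocrine values rest on 62 cells at day 3 and 60 at day 1.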

How the results depend on the processing

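The log2 ratio of the highest to the lowest class, 1.46 at day 3 and 1.37 at day 1, became 1.19 and 1.24 without mitochondrial and ribosomal transcripts in the total, 1.51 and 1.69 with median ratio scaling, and 1.59 and 1.29 in cells of 10000 to 40000 UMIs. With rebuilt UMI counts it was 1.52 at day 3. The median difference between ages, -0.13 over classes, was -0.01 in members of at most 600 bases, a split chosen after seeing the data. Of 443 pairs of member and class, 89 were lower at day 3 past the fold of 1.2. This became 20 with a pseudocount of 1, 1 at a fold of 1.5, and 10 of 143 pairs with a minimum mean of 5. Of all genes, 5.33% in ISC1 to 27.3% in enterocytes were lower past the fold of 1.2. No such share was worked out for the alternatives, so these pooled counts give no result about the subunits. For complex III the median was -0.01, and -0.06 with rebuilt counts or 0.03 with median ratio scaling. For complex IV it was -0.11, and -0.06 with rebuilt counts. Of 476 alternative values of single members, 5 had the opposite sign. Some alternatives could not turn a sign. Leaving out the paralogs left the tested members unchanged, and a larger pseudocount keeps the sign of each class difference. The count is therefore no measure of stability. The cause of these shifts was not tested. Rebuilt counts left 6 and 24 EB2 cells and 12 and 37 EB3 cells at day 3 and day 1, so the rebuilt differences cover 6 classes. No paired analysis was possible because each age has 1 library. Leaving out a replicate was not possible for the same reason.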

Other observations

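Lactate dehydrogenase, the enzyme that regenerates NAD+ without oxygen, had a class pattern unlike that of the subunits. Ldh had 22.5 per 10000 at day 3 and 27.4 at day 1 in Tk+EE cells, against 2.53 and 2.94 in AstC+EE cells. Among progenitors it was highest in EB2, at 7.43 and 5.12, the class with the highest subunit level there, and it was 3.48 and 1.74 in EB3 cells, against 1.12 and 0.851 in EB1 cells. Myc, a growth regulator, ran against the subunits among progenitors: EB2 had 6.62 at day 3 and 6.21 at day 1, while EB1 had 18.2 and 12.2 and ISC2 had 18.1 and 12.7.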
